A study of Mus musculus with 34 samples.

Results

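The genes described here are Nkx2-1, Lhx8, Isl1, Lhx6, Gbx1 and Ngfr, 6 genes linked to the basal forebrain, out of 20145 genes that could be named on the array. They were chosen by name, with their profiles in these data already known, so their peak fractions and splits are given as a description without tests. All 9 of their probes were taken, out of 55681 probes on the array. The brains came from 3 male C57BL/6J mice at 3 days of post-natal age. The first was cut into 15 coronal fractions, another into 8 horizontal fractions and the last into 11 sagittal fractions. A fraction pooled 100 slices of 5 µm, a width of 500 µm, and was hybridised to 1 single-colour Agilent array, so there is no replicate array. Plane of cutting and mouse cannot be told apart, since every plane came from a brain of its own. The labels name 2 pooled cut fractions each for sagittal fractions 1 and 11. They do not say at which end the numbering starts. Values are log2 of the normalized signal, that is the processed signal of a probe relative to the 75th percentile of its array. A probe counted as detected in a fraction when its spots were flagged well above background.

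Ngfr encodes a receptor, and the other genes encode transcription factors with a homeodomain. Nkx2-1 patterns both the medial ganglionic eminence of the embryonic telencephalon and the ventral hypothalamus. In the lineage from the ganglionic eminence, Lhx6 is known for cortical and striatal interneurons, while Lhx8, Isl1 and Gbx1 are known for cholinergic neurons of the basal forebrain. Those neurons carry Ngfr, the low affinity neurotrophin receptor p75. Isl1 also marks striatal projection neurons, hypothalamic neurons and motor neurons.

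No fraction was dissected by region, and a fraction holds every region its plane passes through. Coronal fractions 7 to 9 were taken as the level of the thalamus and hypothalamus, and 10 to 12 as the level of the striatum and basal forebrain, from names given to these blocks for this work and not from the labels. Marker lists were set against those names. Of 15 striatal genes, 13 had their highest coronal value in fractions 10 to 12, and 15 of 15 had a higher mean there than in fractions 7 to 9 (median difference 1.50 on the log2 scale). The septum and pallidum list did not follow the block name. Of its 7 genes, 0 had their highest coronal value in fractions 10 to 12, and 3 of 7 had a higher mean there (median -0.10). Of these 7 genes, 3 had their highest value in fractions 1 to 3 and 3 in fractions 13 to 15. Genes that are highest elsewhere cannot show whether fractions 10 to 12 hold basal forebrain. That part of the name is thus neither shown nor contradicted by these lists. Of 18 hypothalamic genes with a measurable coronal profile, 11 had their highest value in fractions 7 to 9, and 1 of 18 (Barhl1, 0.15) was higher in fractions 10 to 12 (median -1.65). The lowest was Pmch, the precursor of melanin-concentrating hormone, at -5.21. Of the same 18 genes, 16 were highest in horizontal fractions 7 or 8, and 16 of 18 were higher in the middle sagittal fractions 5 to 7 than in fractions 3, 4, 8 and 9 (median 1.18), whereas 0 of 15 striatal genes were (median -0.92). In bulk fractions of this kind, fewer expressing cells and less RNA per cell cannot be told apart.

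Of the 6 genes, 4 had their coronal maximum in fractions 10 to 12, against 23.2% of the 34186 probes detected in every series. The other two, Gbx1 and Ngfr, had it in fractions 1 to 3, as did 18.2% of all probes. The horizontal maximum lay in fraction 7 or 8 for 5 of the 6 genes (22.7% of probes), and the sagittal maximum in fractions 5 to 7 for 1 gene, Nkx2-1 (23.6%). The horizontal exception was Lhx6, whose main probe was highest in fraction 1 with a lead of 0.04 over fraction 7. Its maximum lay in fraction 7 after normexp background correction, and in fraction 8 with scaling to the array median and for probe A_55_P2094158. The remaining Lhx6 probe was detected in 0 of 8 horizontal fractions and gives no maximum there. These shares were part of why the genes were grouped, and nothing is read from them. Every series had at least 1 fraction in which a given gene was detected, for 6 of the 6 genes and for 61.4% of all probes. Fraction 11 was the coronal maximum of 3 genes, Lhx8, Isl1 and Lhx6 (6.16% of probes), and 3 genes, Nkx2-1, Lhx8 and Isl1, had both a coronal maximum in fractions 10 to 12 and a horizontal one in 7 or 8 (3.36%). By main probe, 2 of the 6 genes, Lhx6 and Ngfr, were detected in all 34 fractions, against 45.6% of all probes.

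**Figure D1:**
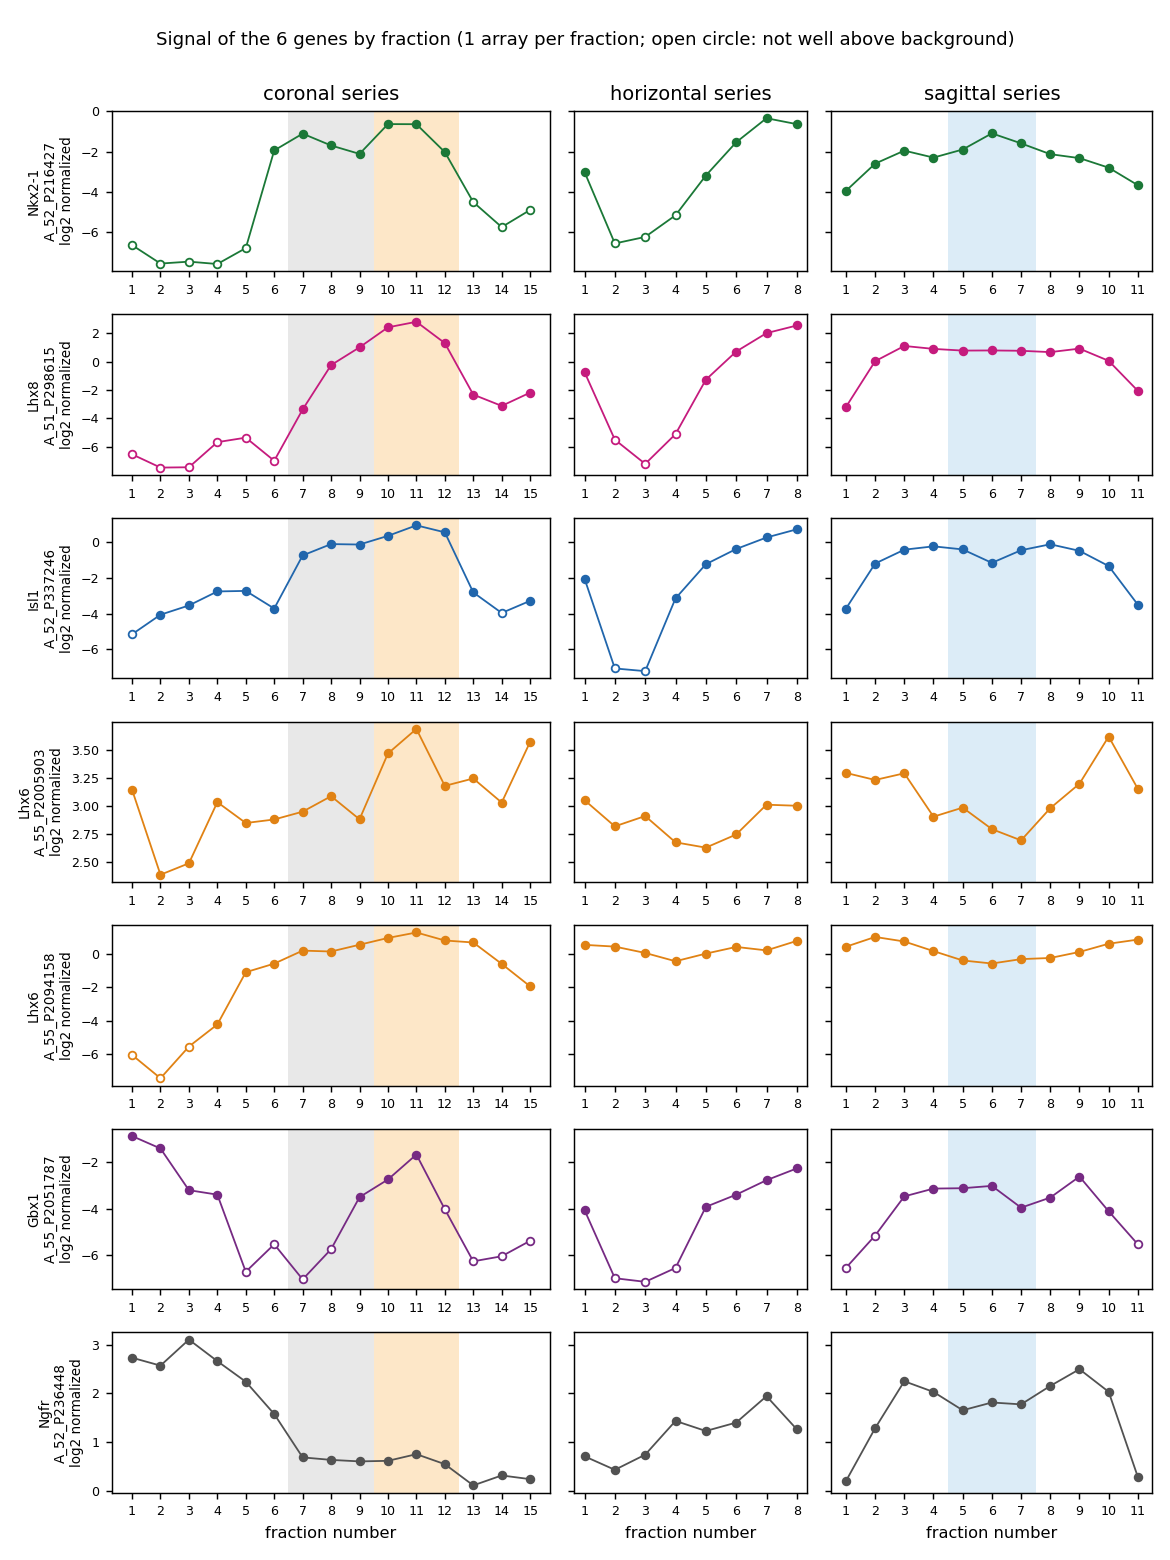
Log2 normalized signal (y axis, each row on its own scale) of 7 probes of the 6 genes against fraction number (x axis) in the coronal, horizontal and sagittal series. Each point is 1 array, open circles were not well above background, grey marks coronal fractions 7 to 9, orange 10 to 12 and blue sagittal fractions 5 to 7. Nkx2-1 shows 2 coronal maxima, Lhx8 and Isl1 show 1 with its top at fraction 11, and Gbx1 and Ngfr are highest at the low-numbered coronal end.

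Nkx2-1 stood at 2 coronal levels. Its probe, spotted 10 times on each array, was not well above background in coronal fractions 1 to 5 or 13 to 15. It measured -1.94 in fraction 6, -1.11 in fraction 7, -1.69 in fraction 8 and -2.11 in fraction 9. It then measured -0.63 in fraction 10, -0.64 in fraction 11 and -2.02 in fraction 12. A lesser maximum in fraction 7 and a higher one in fractions 10 and 11 were thus parted by a low point in fraction 9, which lay 1.00 below fraction 7 and 1.48 (2.79-fold) below fraction 10. The SD over the 10 spots was 0.128 in fraction 7, 0.0658 in fraction 9 and 0.0612 in fraction 10, which covers the array surface only. Fractions 9 and 10 lay on 1 slide, whereas fractions 7 and 9 lay on different slides, and within the slide of fraction 7 the level of fraction 8 was lower by 0.59. A dip of at least 0.9 on both sides of coronal fraction 8 or 9 was found in 1.18% of 27381 probes detected in this range. It was found in none of the other 5 genes, of which Gbx1 was not detected throughout the range. The fall of 1.00 in Nkx2-1 lay close above this cut and the 0.59 within 1 slide below it. The profile was known beforehand, so nothing is read from that share. On a linear scale, fractions 7 to 9 held 34.3% of the coronal signal of Nkx2-1 and fractions 10 to 12 held 52.3%. The level in fractions 10 and 11 was at least 23.5-fold that of fractions 1 to 5, and in fraction 7 at least 17.0-fold. Here and below, "at least" sets the mean of the bright fractions against the lowest signal that counted as well above background on the dim arrays.

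Along the other axes Nkx2-1 had single maxima. In the horizontal series it ran from -6.56 to -0.34 with a median of -3.10, was highest in fraction 7, and was not well above background in fractions 2 to 4. In the sagittal series it was detected in all 11 fractions, from -3.95 to -1.09 with a median of -2.29. The highest value lay in fraction 6, where it was 1.20 above fraction 4 and 1.03 above fraction 8. Fractions whose numbers add up to 12 were taken as mirror pairs, with the midline assumed in fraction 6. The spread within mirror pairs (SD 0.195) was smaller than those steps.

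Lhx8 formed 1 steep coronal hill. It was not well above background in fractions 1 to 6. It measured -3.37 in fraction 7, -0.24 in fraction 8, 1.01 in fraction 9, 2.42 in fraction 10, 2.81 in fraction 11 and 1.31 in fraction 12. Fractions 13 to 15 measured -2.32, -3.12 and -2.18. Fractions 10 to 12 were all above fractions 7 to 9, and every fraction outside 8 to 12 was below them. The difference between fractions 7 and 11 was 6.18 (72.4-fold), and the step from fraction 12 to 13 was 3.63 (12.4-fold). Of its coronal signal, 80.6% lay in fractions 10 to 12 and 16.1% in fractions 7 to 9. The level in fractions 10 and 11 was at least 221-fold that of fractions 1 to 6.

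In the horizontal series Lhx8 ran from -7.20 to 2.55 with a median of -1.002, and it was highest in fraction 8, next in fraction 7 (2.01). Its level in fractions 7 and 8 was at least 175-fold that of fractions 2 to 4, in which it was not well above background. In the sagittal series it was nearly level from fraction 3 to fraction 9, between 0.67 and 1.11. Only the flanks were lower, at 0.03 and 0.06 in fractions 2 and 10 and at -3.20 and -2.06 in fractions 1 and 11. Over fractions 3 to 9 the range was close to the mirror SD of 0.373, but that SD rests mostly on fractions 1 and 11, which differed by 1.14. The mirror pairs within fractions 3 to 9 differed by -0.19, -0.23 and -0.01. With 1 array per fraction, no order is read among fractions 3 to 9.

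Isl1 was detected more widely. In coronal fractions 2 to 6 it was low but well above background, between -4.06 and -2.72. From fraction 6 to 7 it was 2.97 (7.83-fold) higher, and it then stood at -0.74, -0.10, -0.13, 0.36, 0.94 and 0.55 in fractions 7 to 12. Fraction 13 was at -2.81, a step of 3.36. The result was a plateau over both coronal blocks with its top in fraction 11. Fractions 7 to 9 held 30.6% of the coronal signal and fractions 10 to 12 held 58.6%. The cranial motor neuron list had its highest summed level in coronal fraction 4 (4.02), within the range where Isl1 was low but detected. Its part in those values was not tested.

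Isl1 also differed from Nkx2-1 at the sagittal middle. It measured -1.16 in fraction 6, below the -0.23 of fraction 4 and the -0.12 of fraction 8. Nkx2-1 was at its highest in that same fraction. Such a low point, with fraction 6 under both fractions 4 and 8, is common and was found in 48% of the probes measured there. The mirror SD of Isl1 was 0.0940, so the difference of 1.04 between fractions 8 and 6 was larger than the spread between mirror fractions. In the horizontal series Isl1 ran from -7.21 to 0.72 with a median of -1.63, and the highest value was again in fraction 8.

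The profile of Lhx6 depended on the probe. Probe A_55_P2005903 was detected in all 34 fractions and was almost flat, from 2.38 to 3.68 with an SD of 0.300 over all fractions. Probe A_55_P2094158, listed under the same RefSeq transcript, was not well above background in coronal fractions 1 to 3. It measured -4.23 in fraction 4, -1.10 in fraction 5 and -0.59 in fraction 6, and stood between 0.14 and 0.54 in fractions 7 to 9. It was highest in fraction 11 (1.28) and measured -1.95 in fraction 15. Over the 34 fractions the r between both probes was 0.42, while within the series it lay between 0.59 and 0.73. The last probe, A_55_P2094149 of another Lhx6 transcript, was detected in 3 of 34 fractions, coronal 10 and sagittal 1 and 2. The first probe is the main one by the rule of most fractions detected, and counts over the 6 genes use the main probe.

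Second-probe Lhx6 was spread along the horizontal axis, where Nkx2-1, Lhx8 and Isl1 were not. It was detected in all 8 horizontal fractions, within a range of 1.22 (from -0.45 to 0.77). In the sagittal series it was lowest in the middle (-0.58 in fraction 6) and higher towards the outside, with 1.01 in fraction 2 and 0.85 in fraction 11. The first probe was likewise lowest in sagittal fractions 6 and 7 (2.79 and 2.69). In coronal fractions 10 and 11 the second probe was at least 79.8-fold above fractions 1 to 3.

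Gbx1 had 2 coronal territories, and by its main probe these were parted by fractions without detection. Probe A_55_P2051787 measured -0.87, -1.41, -3.20 and -3.39 in fractions 1 to 4 and was not well above background in fractions 5 to 8. It was detected again in fractions 9 to 11 at -3.50, -2.74 and -1.67, and not from fraction 12 onward. The other Gbx1 probe, A_55_P2079483, gave the same maxima (-1.56 in fraction 1 and -2.57 in fraction 11), and the r between both probes was 0.90 over 34 fractions. This other probe was also detected in fraction 6 (-4.49), near its level in fraction 9 (-4.54), so the gap depended on the probe. Fractions 1 to 3 held 55.7% of the coronal signal and fractions 10 to 12 held 28.4%. The level in fractions 1 and 2 was at least 15.2-fold that of fractions 5 to 8, and in fractions 10 and 11 at least 7.29-fold. In the horizontal series it was highest in fraction 8 (-2.26) and in the sagittal series in fraction 9 (-2.61), both near the lower end of what the array measures. The cerebellar marker list had its highest summed level in coronal fraction 1 (6.44). Its part in the Gbx1 signal there was not tested.

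Ngfr was detected in every fraction, and its coronal profile went the other way from Lhx8. It measured 2.73, 2.57, 3.10, 2.66 and 2.24 in fractions 1 to 5 and 1.58 in fraction 6. Fractions 7 to 12 stood between 0.55 and 0.75, and fractions 13 to 15 between 0.11 and 0.32. The step from fraction 11 to fraction 3 was 2.35 (5.10-fold). Its spots agreed closely, with a median SD of 0.0467 over 10 spots. In the sagittal series Ngfr was highest in fractions 9 (2.50) and 3 (2.25) and lowest in fractions 1 and 11 (0.20 and 0.28). The horizontal maximum was in fraction 7 (1.94). The Schwann cell list, whose cells also carry p75, had its highest summed levels in coronal fraction 6 (2.85), horizontal fraction 8 (2.96) and sagittal fraction 9 (2.74), while Cdh19 of that list was detected in 1 fraction of 34. Its part in the Ngfr values was not tested.

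**Figure D2:**
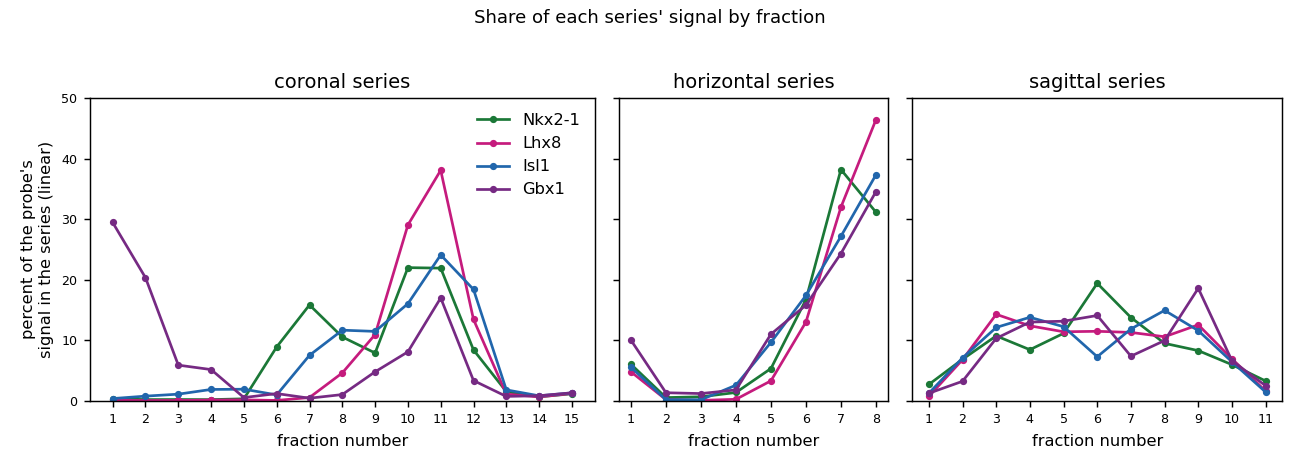
Percent of a probe's linear signal within a series (y axis) against fraction number (x axis) for Nkx2-1, Lhx8, Isl1 and Gbx1. The coronal maxima of Lhx8, Isl1 and Nkx2-1 overlap in fractions 10 and 11, Nkx2-1 has a further maximum in fraction 7 and Gbx1 in fraction 1, and all 4 genes are higher in horizontal fraction 1 than in fractions 2 and 3.

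The coronal split, the mean of fractions 10 to 12 minus the mean of fractions 7 to 9, set the telencephalic against the hypothalamic level. It was 3.05 for Lhx8 (8.26-fold), 2.61 for Gbx1 by the main probe and 1.72 by the other probe. It was 0.94 for Isl1 (1.92-fold), 0.72 for Lhx6 by the second probe and 0.47 by the first, 0.54 for Nkx2-1 (1.45-fold) and -0.00 for Ngfr. Over 33356 probes the median was 0.07, with 5% of probes below -0.65 and 5% above 0.63. A split above 0 was found for 5 of the 6 genes, against 58% of all probes, and a split of at least 1 for 2 genes, Lhx8 and Gbx1, against 1.26%. The share of probes with a lower split was 99.98% for Lhx8, 99.96% for Gbx1, 98.5% for Isl1, 92.5% for Nkx2-1, 89.1% for Lhx6 and 41.7% for Ngfr. For Gbx1, the blocks hold values that were not well above background (well above background were 2 of 3 fractions in the higher block and 1 of 3 in the lower one), so its size is not firm. The mirror SD was 0.373 for Lhx8, 0.607 for Gbx1, 0.0940 for Isl1, 0.195 for Nkx2-1 and 0.164 for Lhx6. The mirror SD of the second Lhx6 probe was 0.303, and 96.7% of probes had a lower split than it. The splits of Lhx8, Isl1, Nkx2-1, Gbx1 and both Lhx6 probes were larger than their mirror SD, and that of Ngfr was smaller. The mirror SD comes from single fractions of the sagittal mouse and does not measure the error of a difference between coronal blocks, for which there is no replicate. Neighbours in this order whose splits differ by no more than the larger of their mirror SDs are Lhx8 and Gbx1, Isl1 and the second Lhx6 probe, and Nkx2-1 and both Lhx6 probes.

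The size and order of the splits depended on which fractions stood for a block. For Nkx2-1 the split was 0.54 over all 6 fractions, 1.00 without fraction 12, 1.27 between fractions 8 and 9 and fractions 10 and 11, and 1.48 within a single slide (fractions 10 and 11 against 9). For Lhx8 it was 3.05 over all 6 fractions, 3.48 without fraction 12, 2.23 between fractions 8 and 9 and fractions 10 and 11, and 1.61 within that slide. Within the slide Gbx1 was at 1.29, Isl1 at 0.78 and the first Lhx6 probe at 0.70. With 2 fractions on each side Nkx2-1 (1.27) was thus above Isl1 (0.77), and within the slide it was above Isl1 and Gbx1 and near Lhx8. Over all 6 fractions Nkx2-1 was below both Isl1 and Gbx1. Lhx8 stayed the highest, and Gbx1 stayed above Isl1, within the slide.

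The sagittal split, the mean of the middle fractions 5 to 7 minus the mean of fractions 3, 4, 8 and 9, parted Nkx2-1 from the rest. It was 0.65 for Nkx2-1 (1.57-fold higher in the middle), a value above those of 97.0% of 33972 probes. The others were -0.12 for Lhx8, -0.18 for Gbx1, -0.27 and -0.62 for the first and second probes of Lhx6, -0.36 for Isl1 and -0.48 for Ngfr. A positive value was thus found for 1 of 6 genes, against 43.6% of all probes. For Lhx8 and Gbx1 the value was within the mirror SD, which for Lhx8 rests mostly on fractions 1 and 11, outside those compared. Nkx2-1 was the only one of the 6 genes with both splits above 0. Of the 18 hypothalamic genes in the plot of the splits, Barhl1 alone was positive on both, and of the 15 striatal genes none was. In lists outside that plot the combination was found too. Of 7 cholinergic genes, 4 were positive on both. Of 17 regulators of the ganglionic eminences and interneurons, 5 had a sagittal split above 0. Among them were Dlx1 (coronal 0.88, sagittal 0.58) and Dlx2 (0.95 and 0.57). The share of all probes with both splits above 0 was not counted, so nothing is read from the combination.

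**Figure D3:**
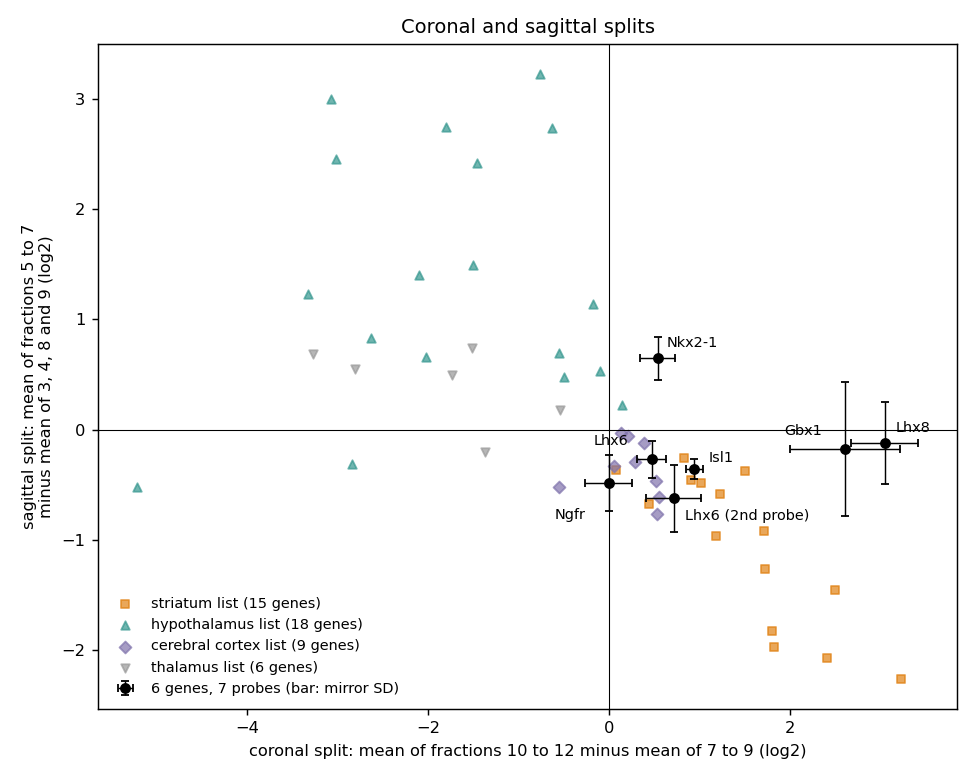
Sagittal split (y axis, log2) against coronal split (x axis, log2) for 7 probes of the 6 genes (black, with bars of 1 mirror SD, the spread between mirror sagittal fractions) and for genes of the striatum, hypothalamus, cerebral cortex and thalamus lists. Striatal genes lie to the lower right and hypothalamic genes mostly to the upper left, Nkx2-1 lies apart at 0.54 and 0.65, and Lhx8 and Gbx1 lie far to the right near 0 on the y axis.

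Horizontal fraction 1 carried signal of 4 of the genes away from their maxima. Lhx8 measured -0.73 there, which is 10.3% of its level in fraction 8, although fractions 2 to 4 were not well above background. Nkx2-1 measured -3.01 (19.3% of fraction 8), Isl1 -2.04 (14.8%) and Gbx1 -4.05 (28.9%). For Lhx8 the level in fraction 1 was at least 21.7-fold that of fractions 2 to 4. Among 352 probes that were detected in horizontal fractions 7 and 8 and in neither 2 nor 3, 34.4% were also detected in fraction 1, so the pattern is shared by other probes of the high-numbered end.

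Likeness was measured as Pearson's r over the 34 fractions, which share 3 brains, their regional makeup and the array scale, so r is given as a description. Lhx8 and Isl1 had an r of 0.87, Lhx8 and Nkx2-1 0.85, and Nkx2-1 and Isl1 0.82. In the horizontal series these 3 pairs reached 0.94, 0.98 and 0.95. The coronal and horizontal values of r include fractions in which these genes were not well above background. A contrast between fractions with and without detected signal thus enters r, and no r over detected fractions alone is given. The r of Lhx8 with Nkx2-1 was lowest in the coronal series (0.77), in which Nkx2-1 has its extra maximum. Gbx1 shared the horizontal and sagittal profiles of Lhx8 (r 0.99 and 0.91) but not the coronal one (0.01). Ngfr shared the sagittal profile (0.93) and had an r of -0.77 in the coronal series. Second-probe Lhx6 had the opposite pattern, with 0.79 in the coronal series and -0.43 in the sagittal series. Within the slides that held at least 6 arrays, the r of Lhx8 with Isl1 lay between 0.58 and 0.99 and that of Lhx8 with Nkx2-1 between 0.39 and 0.99, both lowest on slide 4 with its 8 sagittal fractions.

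**Figure D4:**
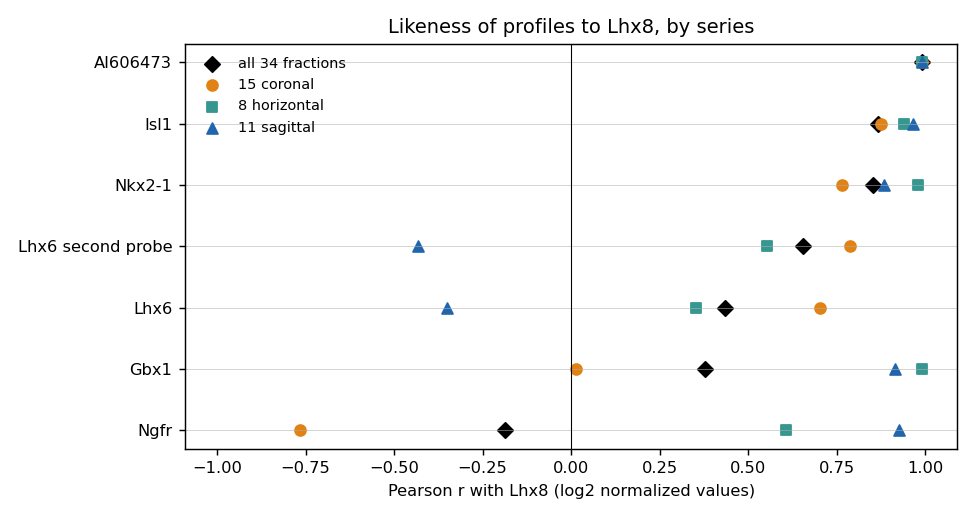
Pearson r with Lhx8 (x axis) of AI606473, of Isl1, Nkx2-1, Gbx1 and Ngfr and of both Lhx6 probes (y axis), over all 34 fractions (black diamonds) and within the 15 coronal (orange), 8 horizontal (green) and 11 sagittal (blue) fractions. Isl1 and Nkx2-1 lie at 0.77 or above in every series, whereas Gbx1, Ngfr and Lhx6 are spread widely between series. Fractions in which a probe was not well above background are included.

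The number of probes most like a member differed between members. At an r of at least 0.85, 2 probes reached Nkx2-1, 4 reached Lhx8, 3 reached Isl1 and 1 reached Gbx1 (its own other probe). The numbers were 11 for the first Lhx6 probe, 89 for the second and 43 for Ngfr. Over all probes, 55% had at least 1 such partner. The 5 nearest genes of Nkx2-1 were Lhx8, Fezf1 (0.84), a zinc finger factor of the ventromedial hypothalamus, Isl1, Cyp19a1 (0.79), which encodes aromatase, and Fndc9 (0.78). Those of Lhx8 were Isl1, Dlx6 (0.85), a homeobox factor of the ganglionic eminences, Nkx2-1, Wfs1 (0.84) and Wfdc18 (0.82). Those of Isl1 were Lhx8, Cited4 (0.85), Brs3 (0.84), a bombesin receptor, Wfs1 (0.82) and Nkx2-1. Fezf1 had nearly the same r with Lhx8 (0.82) as Wfdc18 had. Fezf1 itself had a coronal split of -2.63 and its maximum in coronal fraction 8.

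Second-probe Lhx6 was near to Nr2e1 (0.96), Fezf2 (0.94), Chrm1 (0.94) and Tbr1 (0.93), genes of the telencephalon or cortex, and its r with them in the horizontal series alone lay between -0.47 and 0.27. The first probe was nearest to Tacr2 (0.90), Pdzrn3 (0.89), Fam107a (0.87), Snap23 (0.86) and Oprm1 (0.85). The 2 lists held no gene in common. Gbx1 was nearest to Penk (0.80), which encodes proenkephalin, Zfp503 (0.78), Rec8 (0.78), Sptb (0.77) and Nms (0.76). Penk likewise had a maximum at each of 2 coronal places, 5.14 in fraction 3 and 5.31 in fraction 11. Ngfr was nearest to Lynx1 (0.91), a modulator of nicotinic receptors, Plxnb3 (0.90), Bcas1 (0.90), Zfp488 (0.89) and Fa2h (0.89). Bcas1, Zfp488 and Fa2h are known from oligodendrocytes, and Bcas1 stood at 3.07 in coronal fraction 3 and 0.77 in fraction 11.

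Of the genes of the cholinergic phenotype, Chat, Slc18a3 and Slc5a7 had more than 1 coronal maximum, while the summed level of the list of 7 had its highest value in coronal fraction 4 (4.60). Chat, the enzyme that makes acetylcholine, was highest in coronal fraction 3 (-1.77), was not well above background in fraction 7 (-5.36), stood at -3.10 and -3.07 in fractions 10 and 11, and measured -2.74 in fraction 15. Slc18a3, the vesicular acetylcholine transporter, had 2.39 in fraction 3, -1.06 in fraction 7 and 0.89 in fraction 11. Slc5a7, the choline transporter, had 0.40 in fraction 3, -2.70 in fraction 7, -0.94 in fraction 9 and -1.78 in fraction 11. Chat, Slc18a3 and Slc5a7 were thus lower in fraction 7 than on either side of it, and fraction 7 was the fraction in which Nkx2-1 had its first maximum. Of the 7 genes of this list, 4 had a coronal split above 0 (median 0.75), with Gfra2 the lowest at -0.71, and 7 of 7 had a sagittal split above 0 (median 0.23). Over the 34 fractions Lhx8 had an r of 0.25 with Chat, 0.23 with Slc18a3 and 0.11 with Slc5a7.

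In the neurotrophin and p75 pathway, 6 of 12 genes had a coronal split above 0 and the median was -0.07, near the 0.07 of all probes. Bdnf, a ligand, was the lowest at -1.70. Of 17 regulators of the ganglionic eminences and interneurons, 10 had a split above 0 (median 0.26), from Gsx2 at 1.65 to Shh at -0.93. Of these 17, 0 had the coronal maximum in fractions 7 to 9, against 12.5% of all probes, and 9 had it in fractions 13 to 15, against 32.8%. Of 9 LIM cofactors, 6 had a split above 0 (median 0.11), and none was beyond Lmo4 at 0.60 or Lmo1 at -0.34. They were detected in all 34 fractions.

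Related homeobox genes were spread widely. Of 15 paralogs with a measurable split, 4 were above 0 and the median was -1.11. The lowest was Lhx9 at -3.27, a thalamic gene, and the highest Nkx2-3 at 2.36, which had its coronal maximum in fraction 12, its horizontal one in fraction 8 and an r of 0.78 with Lhx8. Gbx2, the paralog of Gbx1 and a thalamic gene, had its coronal maximum in fraction 8 (1.14), where Gbx1 was not well above background, and a split of -1.51. Nkx2-4, the closest relative of Nkx2-1, had its coronal maximum in fraction 7, a coronal split of -1.59 and a sagittal split of 0.87. Nkx2-4 was not part of the rule for the genes named and was chosen after its values were seen.

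Nkx2-1 is also known from the thyroid and the posterior pituitary. A list of 4 thyroid genes had summed levels between -2.86 and -0.91 in the coronal series, with its highest value in fraction 14, in which Nkx2-1 was not well above background. Tg, the precursor of thyroid hormone, was detected in 21 of 34 fractions with a highest value of -3.84. The pituitary list had its highest summed level in coronal fraction 4, horizontal fraction 8 and sagittal fraction 6, and its summed coronal level was 0.81 in fraction 7 and -3.27 in fraction 10. Its part in the first coronal maximum and in the sagittal maximum of Nkx2-1 was not tested.

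The non-coding gene AI606473 was the probe most like Lhx8 (r 0.99 in each series and overall). By the RefSeq table of assembly GRCm38.p6, Lhx8 lies on chromosome 3 from 154306288 to 154330560 on the minus strand, and AI606473 from 154330821 to 154334687 on the plus strand. Their starts face away from each other across 260 bases. Of 27025 genes in the promoter table, 9.45% have another start head to head within 300 bases, and among the members with an entry this was so for Lhx8 and for Nkx2-1, which lies 281 bases from the start of Gm26973. The stretch between both starts is shown because it is the only sequence that lies before each of them. It is read on the plus strand at chr3:154330561-154330820, from the base next to the start of Lhx8 to the base next to that of AI606473, in lower case throughout since it held neither motif searched.
Lhx8 to AI606473: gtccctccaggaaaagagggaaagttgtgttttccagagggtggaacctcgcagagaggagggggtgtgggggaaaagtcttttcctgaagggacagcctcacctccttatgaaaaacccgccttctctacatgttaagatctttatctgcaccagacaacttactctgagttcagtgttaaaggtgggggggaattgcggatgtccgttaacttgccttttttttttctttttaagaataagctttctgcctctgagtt
Its GC content was 46.2%. The motifs searched on both strands were TAATTA, a core bound by homeodomains, and CAAGTG, a core bound by Nkx2 factors, which do not overlap one another and which 5.29% and 13.6% of 32851 promoter windows of 300 bases hold. Among the windows of Nkx2-1, Lhx8, Isl1, Lhx6 and Ngfr, only that of Ngfr held a match, 1 of CAAGTG. No promoter entry was found for Gbx1.

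The other members lie apart from Lhx8, with Nkx2-1 on chromosome 12 from 56531935 to 56536908, Isl1 on chromosome 13 from 116298270 to 116309688, Lhx6 on chromosome 2 from 36081950 to 36105992, Gbx1 on chromosome 5 from 24504426 to 24526848 and Ngfr on chromosome 11 from 95568818 to 95587698 (GRCm38.p6). Their neighbours had lower values of r with them than AI606473 had with Lhx8. On its other side Lhx8 is next to Slc44a5, with an r of 0.13. Isl1 lies far from the nearest gene with a named probe, Parp8 (541153 bases, r 0.30). The neighbours of Lhx6 had an r between -0.23 (Rbm18) and 0.27 (Ndufa8) with the first probe, and up to 0.59 (Mrrf) with the second. Those of Gbx1 with a probe detected ranged from -0.41 (Agap3) to 0.25 (Asb10), and those of Ngfr from -0.66 (Phb) to -0.11 (Nxph3). The neighbours of Nkx2-1 are non-coding genes and a pseudogene that no named probe measured here. Its most similar probe, A_66_P139946, had an r of 0.97 with it and was not matched to a gene symbol.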

How the data were processed

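RNA of each fraction was labelled with Cy3 and hybridised to an Agilent SurePrint G3 Mouse GE array. The authors scanned the arrays with Feature Extraction 10.10.1.1 (version from the submitters' processing notes) and deposited scanner files whose intensity columns hold the background-subtracted processed signal, the median signal and flags for each spot. A further deposited table gives log2 values of 43199 probes, and over the probes followed here it differed from the values used by at most 0.111. Spots of a probe were averaged, and log2 of the processed signal less the array's 75th percentile was used. Of 59305 spots that are not controls, 29598 to 37091 were well above background on an array and 0 were saturated. The arrays lay on 5 slides, and precision is limited by how many arrays there are.

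Of 55681 probes, 26582 were matched to a symbol through the accession in the files and a RefSeq table (GRCm38.p6). For each member all probes were taken, with the 5 genes of highest r to its main probe, the 2 nearest genes on either side, the genes with the highest and lowest split of 17 lists, and Chat, Slc18a3, Slc5a7 and Gbx2. Some genes that this rule names are not reported here. Members and lists were chosen with earlier results of these data known. With 1 array per fraction no test was made. Python 3.11.15, numpy 2.4.6, pandas 2.3.3, R 4.3.3 and limma 3.58.1 were used, and the profile search was tested on simulated data. Alternatives were other array scalings (array median, quantile), normexp with an offset of 50, the deposited log2 values, other blocks, other probes, leaving out slides or fractions, and rho or linear signals for likeness. The normexp alternative was planned on the mean signal, and the median signal was used because the files hold no mean column. No table of protein sequences was used here.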

Additional observations from a re-analysis of the deposited data

Results flagged for a closer look

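In 9 groups of values (the 8 horizontal values, or the 5 differences between mirror sagittal fractions, of each probe detected in all of them), the highest or lowest value was compared with its neighbours to find one lying far from the rest, which chance alone gives in about 1 of 20 groups. Such a value was found in 2 groups. For Lhx8 the difference of sagittal fraction 11 minus fraction 1 was 1.14, while the other pairs lay between -0.23 and 0.03, and the gap took up 0.814 of the range. Fractions 1 and 11 each pool 2 cut fractions and lay on different slides, and the part of either in the difference was not tested. For Ngfr the difference of fraction 10 minus fraction 2 was 0.747, while the others lay between 0.0852 and 0.247, and the gap took up 0.755 of the range. Fractions 2 and 10 also lay on different slides (4 and 5), and the part of the slides in this difference was not tested.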

How the results depend on the processing

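No paired analysis was possible because fraction numbers are positions in different mice. The splits of Lhx8, Isl1, Nkx2-1 and Lhx6 kept their sign under every alternative run, and those near 0 (coronal Ngfr, -0.06 to 0.08, and sagittal Gbx1, -0.29 to 0.17) did not. With fractions 10 and 11 against 9 on 1 slide the coronal split was 1.48 for Nkx2-1, 1.61 for Lhx8, 0.78 for Isl1, 0.70 for the first Lhx6 probe and 1.29 for Gbx1. With fractions 8 and 9 against 10 and 11 it was 1.27 for Nkx2-1, 2.23 for Lhx8 and 0.77 for Isl1, and without slide 5 it was 1.00 for Nkx2-1 and 3.48 for Lhx8. With the highest fraction of each block it was 1.80 for Lhx8, 1.05 for Isl1 and 1.83 for Gbx1, and with linear means 2.33 for Lhx8. The normexp correction gave 2.39 for Lhx8, 0.79 for Isl1, 0.80 for Gbx1 and a sagittal split of 0.40 for Nkx2-1. With sagittal fraction 6 alone the sagittal split was 1.08 for Nkx2-1 and -0.84 for Isl1. In the sagittal series alone the r of Lhx8 with the second Lhx6 probe was -0.43 in place of 0.66. The coronal maximum of Nkx2-1 moved from fraction 10 to 11 under normexp, since those fractions differ by 0.01. Apart from the fractions left out by construction, the cause was not tested. The horizontal maximum of the first Lhx6 probe moved from fraction 1 to 7 under normexp and to 8 with the array median. Several Gbx1 values were not well above background.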
